A study of Homo sapiens with 44 samples.

Results

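IL6, LIF, IL11, IL33, IL1B, IL1RN, CSF1, CSF2 and CSF3 encode secreted proteins through which fibroblasts act on leukocytes and on other stromal cells. Open chromatin at these 9 genes was measured by ATAC-seq in the established human line Ccd18-Co, which consists of colon fibroblasts. The assay uses a transposase that inserts adaptors where DNA is accessible. Every deposited peak that carries one of these gene names was taken. Peaks named LOC541472 were added, because RefSeq lists that name as IL6-AS1, an antisense RNA beside IL6, and its peaks include the one over the IL6 start site. This gave 246 of the 407383 peaks in the table. CSF1 had 71 of them, LIF 48, IL33 34, CSF2 23, IL1B 17, IL6 16, CSF3 13, LOC541472 11, IL1RN 8 and IL11 5. All 246 passed the filter on low values. By the deposited classes, 156 were distal, 54 intronic, 21 exonic and 15 promoter peaks.

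The 44 libraries formed 11 groups of 4, made of unstimulated cells and of cells given 1 of 10 cytokines. The dose of IL-1β was 0.1 ng/ml by the labels and the study's methods, while a figure legend of the study gives a lower one. The other 9, each at 10 ng/ml, were TNF, TGF-β1, oncostatin M (OSM), IFNγ, IFNα, IL-22, IL-6, IL-13 and IL-17A. Cytokines were given for 24 h. The study's methods place 72 h without serum before that, in a passage that does not list IL-13. All libraries came from 1 cell line with no other cell type present by design, and the labels do not say whether the 4 libraries of a group came from separate cultures. The p-values below then measure only the spread between these samples, which may be technical. Because all libraries of a group come from many cells, more cells with an open site and a more open site in each cell cannot be told apart.

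As background, IL6, LIF and IL11 belong to the IL-6 family, whose members signal through the shared receptor chain gp130, encoded by IL6ST. IL33 and IL1B belong to the IL-1 family. IL-33 is stored in the nucleus of stromal cells and released on damage, and IL1RN encodes the receptor antagonist that blocks IL-1. CSF1, CSF2 and CSF3 encode M-CSF, GM-CSF and G-CSF, growth factors of macrophages, of several myeloid cells and of neutrophils. IL-1β and TNF both activate NF-κB and AP-1. Interferons, IL-6, OSM and IL-13 act through STAT proteins, which bind the motif known as GAS or its relatives.

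A level below is the read coverage in a peak per Mb of coverage in all peaks of that library, after a factor for library composition. All peaks span 500 bases, so levels compare between genes per length. A change is the difference of group means of log2(level + 0.5), given ± its standard error from the limma fit over all tested peaks, and peaks with a Benjamini-Hochberg adjusted p under 0.05 are called raised or lowered by the sign. Such changes understate the fold at low levels. Coverage in peaks ran from 149 to 823 Mb per library (median 416), and 3 reads correspond to a level of 0.295 to 1.33. The shallowest library was labelled IL-6 replicate 4, in which 27.1% of all peaks had no coverage. Over the 246 peaks and 44 libraries, the median value was worth 7.05 reads, so counting error limits most low peaks. All 7 fibroblast markers listed (COL1A1, COL1A2, COL3A1, PDGFRB, THY1, DCN and VIM) had a start-site peak. Their mean unstimulated levels ran from 4.56 (DCN) to 38.5 (COL1A2). Of the 5 leukocyte markers, CD79A alone had one (1.59), and PTPRC, SPI1, CD3E and LYZ had none. Of the 4 epithelial markers EPCAM (0.512) and ELF3 (0.683) had one, and CDH1 and KRT20 had none. All 3 endothelial markers had one, at 0.633 for PECAM1, 1.72 for CDH5 and 0.538 for VWF. Whether a marker has a peak depends on how the peaks of the table were selected, which is not given.

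The promoter of IL6 and short stretches of the peaks that changed most are shown so that the values below can be read beside the DNA they belong to. All are on the plus strand of hg38 and were read from that build, apart from the IL6 promoter, which is RefSeq's 250 bases before the start site on the plus strand. Capitals mark matches to the motif named in each case, on either strand.
IL6 promoter at chr7:22726950-22727199, with a C/EBP match and an NF-κB match: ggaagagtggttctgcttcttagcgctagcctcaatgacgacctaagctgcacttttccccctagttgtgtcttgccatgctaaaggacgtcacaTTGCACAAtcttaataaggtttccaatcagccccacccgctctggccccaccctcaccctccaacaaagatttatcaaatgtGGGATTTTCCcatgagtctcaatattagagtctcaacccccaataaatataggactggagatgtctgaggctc
IL11 at -2.5 kb, chr19:55372893-55373022, with 2 AP-1 matches: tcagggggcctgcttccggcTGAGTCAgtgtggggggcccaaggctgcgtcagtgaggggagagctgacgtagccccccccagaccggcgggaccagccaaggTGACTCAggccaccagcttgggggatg
LIF at +34.0 kb, chr22:30212904-30212950, with an AP-1 match: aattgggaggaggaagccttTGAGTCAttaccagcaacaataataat
IL33 at +2.6 kb, chr9:6218307-6218507, with an ISRE match and a GAS match: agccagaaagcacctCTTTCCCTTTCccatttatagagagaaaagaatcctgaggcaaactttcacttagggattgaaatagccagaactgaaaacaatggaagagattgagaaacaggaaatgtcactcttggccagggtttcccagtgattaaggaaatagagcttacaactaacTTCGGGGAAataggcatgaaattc
IL1B at +24.6 kb, chr2:112812095-112812145, with overlapping NF-κB matches: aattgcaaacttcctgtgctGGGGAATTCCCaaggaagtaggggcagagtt
CSF1 at -18.1 kb, chr1:109892643-109892733, with separate and overlapping NF-κB matches: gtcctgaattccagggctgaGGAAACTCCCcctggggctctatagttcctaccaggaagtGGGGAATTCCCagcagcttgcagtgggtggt
CSF1 at +7.2 kb, chr1:109917852-109917900, with a GAS match: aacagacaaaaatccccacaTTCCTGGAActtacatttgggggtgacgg
CSF2 at +21.1 kb, chr5:132094749-132094873, with an NF-κB match and an AP-1 match: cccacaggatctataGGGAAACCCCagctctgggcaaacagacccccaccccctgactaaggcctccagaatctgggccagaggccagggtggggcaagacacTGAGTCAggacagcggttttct
CSF3 at the start site, chr17:40015583-40015612, with an NF-κB match and a GAS match: gggctGGGGATCCCCgTTCTGGGAAtgggg
CSF3 at +2.9 kb, chr17:40018469-40018518, with an NF-κB match: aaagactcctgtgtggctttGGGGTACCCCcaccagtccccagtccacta

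Motifs were searched on both strands, as TGANTCA for AP-1, TTCNNNGAA for GAS and TTGCNNAA for C/EBP, and by name for NF-κB and ISRE (the interferon-stimulated response element). Of the 246 peaks, 41 (16.7%) held an NF-κB match, where 8.48% of all peaks did. AP-1 matches were in 26.8% of the 246 and 25.7% of all, GAS in 19.9% and 17.2%, C/EBP in 20.7% and 25.8%, and ISRE in 6.91% and 4.47%. In RefSeq's table of 35116 promoters, 5.21% held an NF-κB match and 9.05% a C/EBP match within 250 bases before the start. That table has promoters for 6 of the 9 genes, and LIF, CSF1 and CSF3 are not among them. A match describes the letters in the window and is not a binding site.

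IL-1β and TNF raised the largest share of these peaks. TNF raised 49 of the 246 (19.9%), where it raised 2.59% of the 407162 tested peaks, and lowered 1 (0.407%), where it lowered 1.47%. IL-1β raised 40 (16.3%, against 1.44% of all) and lowered 4 (1.63%, against 1.7%). The median change of the 246 was 0.33 for TNF and 0.25 for IL-1β, beside medians of -0.03 and 0.01 over all tested peaks. By class, TNF raised 24 of 156 distal, 12 of 54 intronic, 5 of 21 exonic and 8 of 15 promoter peaks. The share of all tested peaks in each class was not computed, so no difference between classes is read from these counts.

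The other cytokines called fewer of them. IFNγ raised 11 (4.47%, against 1.36%) and lowered 0 (background 0.211%). OSM raised 11 (4.47%, against 3.29%) and lowered 6 (2.44%, against 1.06%). IL-13 raised 2 (0.813%, against 0.604%) and lowered 11 (4.47%, against 0.698%), the largest share of lowered peaks among the 10 cytokines. IFNα raised 4 (1.63%, against 0.339%) and lowered 1 (0.407%, against 0.281%). TGF-β1 raised 3 (1.22%, against 1.14%) and lowered 4 (1.63%, against 2.58%), so its share of raised peaks was near that of all peaks. Under median-of-ratios scaling OSM raised 4 and lowered 6, and TGF-β1 raised 10 and lowered 1, so those splits depend on how libraries are scaled. The median change with OSM was -0.126 over all tested peaks. Over the peaks with a log2 mean level over 0 it was 0.157, so the shift depends on level. The OSM values below are not corrected for either shift.

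IL-6, IL-17A and IL-22 called 0 of the 246 peaks in either direction in the limma fit. Over all tested peaks IL-6 raised 0.016% and lowered 0.026%, IL-17A raised 0.0243% and lowered 0.00295%, and IL-22 raised 0.0437% and lowered 0.00196%. At an unadjusted p under 0.05, IL-6 raised 8 and lowered 13 of the 246 (8.54% in all), IL-17A raised 17 and lowered 4 (8.54%), and IL-22 raised 4 and lowered 9 (5.28%). The share of all tested peaks at that unadjusted threshold was not computed, so no trend is read from these counts. The smallest adjusted p of any of the 246 peaks was 0.0705 (IL-6), 0.157 (IL-17A) and 0.241 (IL-22). IL-6 called 1 peak when the library labelled IL-6 replicate 1 was left out. All 10 comparisons share the unstimulated libraries. In all, 83 of the 246 peaks (33.7%) were called in at least 1 of them, where 12.5% of all tested peaks were. Of the 246, 13 (5.28%, against 0.854%) were raised by some cytokines and lowered by others, and 163 were called in none.

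**Figure D1:**
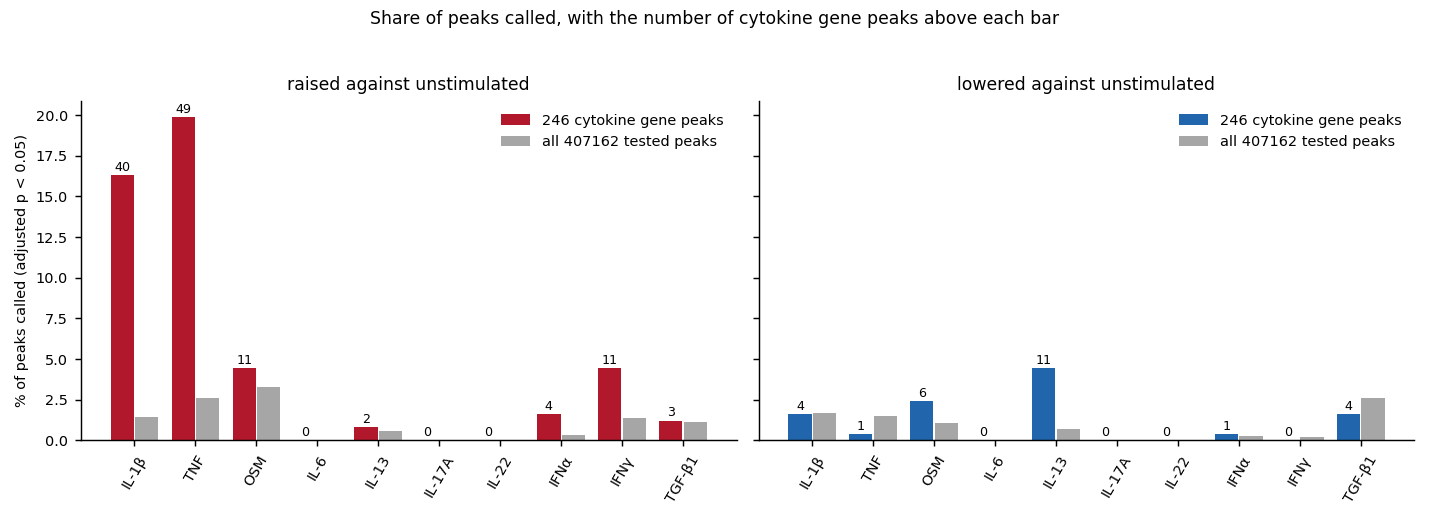
Percentage of peaks called at an adjusted p under 0.05 for each cytokine against unstimulated, raised on the left and lowered on the right. Coloured bars are the 246 peaks of the cytokine genes with their number above, and grey bars are all 407162 tested peaks. TNF (49) and IL-1β (40) have the highest bars for raised peaks and IL-13 (11) the highest for lowered ones.

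At IL6, the peak over the start site (chr7:22726746-22727246, which also lies in IL6-AS1 and STEAP1B) rose with TNF. Its levels were 9.74, 10.7, 9.77 and 11.4 in unstimulated libraries and 16.9, 20.9, 15.1 and 20.7 with TNF. The groups did not overlap, and the change was 0.78 ± 0.18 (adjusted p = 0.00084). With IL-1β the levels were 12.7, 7.99, 13.3 and 12.2, which overlapped the unstimulated ones (change 0.12 ± 0.18, adjusted p = 0.874). IFNγ gave the second highest mean, 15.4 ± 0.399 (SD, n = 4), but its change of 0.55 ± 0.18 did not pass (adjusted p = 0.0978). Group means ran from 9.40 with TGF-β1 to 18.4 with TNF, and neighbouring groups in that order overlapped throughout.

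Downstream of IL6 the response to both cytokines was larger. In the peak 5.7 kb after the start (chr7:22732662-22733162, outside any annotated gene), unstimulated levels were 0.718, 1.14, 0.222 and 1.61. They were 6.03, 6.26, 4.85 and 4.26 with IL-1β and 5.44, 7.54, 4.29 and 5.63 with TNF, so both groups stood wholly above the unstimulated libraries. The changes were 2.13 ± 0.32 (adjusted p = 8.9e-08) and 2.21 ± 0.32 (adjusted p = 1.6e-08). None of the motifs searched had a match in this peak. IL-13 raised it by 1.21 ± 0.32 with levels of 2.45, 3.02, 2.35 and 2.47, and IFNα by 1.18 ± 0.32. The IFNα call (adjusted p = 0.048) was lost in 9 of 19 alternative fits, among them every fit without 1 IFNα library.

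The last exon of IL6 lies under a peak at +4.3 kb (chr7:22731218-22731718) that holds coding sequence and 3′ untranslated sequence. IFNγ raised it from 4.13, 6.40, 2.50 and 3.17 to 9.71, 9.76, 9.76 and 9.05 (change 1.22 ± 0.24, adjusted p = 0.00011). TNF raised it by 1.17 ± 0.24, IL-13 by 0.95 ± 0.24 and IL-1β by 0.81 ± 0.24. Within the IL6 gene, peaks at +3.0 and +3.6 kb rose with both IL-1β (1.33 and 1.84) and TNF (1.89 and 1.96). Of the 27 peaks at this gene, IL-1β raised 4 and TNF 8, and TGF-β1 raised 2 distal peaks at -24.7 and -23.9 kb, by 1.24 each. Both of these distal peaks were shallow. Their mean levels were under 1.33, the level of 3 reads in the shallowest library, so their changes lean on the pseudocount.

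LIF, which encodes leukaemia inhibitory factor, had the largest set of peaks called with IL-1β, 13 raised and 1 lowered of 48, and TNF raised 12 and lowered 1. The start-site peak (chr22:30246522-30247022, shared with the antisense gene LIF-AS2) had levels of 7.30, 5.98, 7.60 and 6.29 in unstimulated libraries. They were 11.0, 11.3, 10.9 and 11.8 with IL-1β and 12.2, 13.7, 15.1 and 14.8 with TNF, in order and without overlap. The changes were 0.69 ± 0.20 (adjusted p = 0.026) and 0.99 ± 0.20 (adjusted p = 0.00015). The IL-1β call was lost in 6 of the 8 fits that left out 1 library of either group.

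The LIF peak at +34.0 kb (chr22:30212553-30213053, with the AP-1 match shown above) moved in opposite directions under different cytokines. Unstimulated levels were 27.1, 24.7, 29.1 and 31.8, and IL-13 lowered them to 15.6, 9.10, 10.7 and 12.3. This fall, -1.23 ± 0.13 (adjusted p = 1.7e-13), was the most strongly supported IL-13 call at any of these genes. With TNF the levels were 40.8, 39.4, 38.4 and 41.5 (change 0.51 ± 0.13), and IL-1β and OSM raised it by 0.48 and 0.47, each ± 0.13. The IL-1β libraries overlapped the unstimulated ones, and the OSM call was lost under 4 of the 5 other scalings tried and kept with GC correction. IL-13 lowered 6 LIF peaks in all, among them peaks at -4.2, +6.7 and +7.4 kb that IL-1β raised.

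The most open LIF peak, at +50.4 kb (chr22:30196085-30196585, in a gene without a symbol), had a mean level of 60.9 in unstimulated libraries, the highest of the 246 peaks. It fell with IL-1β by 0.40 ± 0.10, from 63.9, 59.4, 65.0 and 55.5 to 54.6, 43.9, 46.2 and 40.6. The groups did not overlap, but the IL-1β call was lost with loess offsets and without IL-1β replicate 4. TGF-β1 gave 48.2, 43.0, 49.9 and 43.8 (change -0.39 ± 0.10, adjusted p = 0.0034), but this call was lost under median-of-ratios scaling and its sign turned with loess offsets. TNF lowered a peak at +44.0 kb (chr22:30202520-30203020, in the same gene without a symbol) from 4.53, 4.76, 4.26 and 4.21 to 1.81, 1.14, 2.96 and 2.67 (change -0.96 ± 0.26, adjusted p = 0.010).

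IL11, a gp130 cytokine made by activated fibroblasts, was open beside its start in every group and changed 2.5 kb upstream. The peak nearest to the start site (chr19:55369879-55370379, just downstream of it, over coding and 5′ untranslated exon sequence) had unstimulated levels of 20.9, 19.7, 18.8 and 15.4, and its changes with IL-1β, TNF and TGF-β1 were -0.15, -0.03 and -0.05, each ± 0.16. IFNα lowered it by 0.58 ± 0.16 to 14.6, 15.5, 9.68 and 10.3 (adjusted p = 0.049), a call lost in 9 of 19 alternative fits. The upstream peak (chr19:55372696-55373196, with the 2 AP-1 matches shown above) had unstimulated levels of 5.13, 4.91, 3.57 and 5.81.

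That upstream peak was called with 6 cytokines, more than any other of the 246. IL-1β raised it to 15.1, 15.4, 18.4 and 18.4 (1.71 ± 0.23, adjusted p = 8.3e-10) and TNF to 12.8, 7.88, 14.0 and 14.5 (1.24 ± 0.23). TGF-β1 raised it to 15.2, 9.34, 9.39 and 15.4 (1.24 ± 0.23, adjusted p = 3.0e-05). IFNα (1.07 ± 0.23) and IFNγ (0.80 ± 0.23) also raised it. All 5 groups stood above the unstimulated libraries without overlap. IL-13 lowered it to 2.69, 1.16, 2.27 and 2.10 (-1.09 ± 0.23, adjusted p = 0.0011), below every unstimulated library. The IFNγ call was lost in 9 of 19 alternative fits, among them every fit that left out 1 IFNγ library.

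**Figure D2:**
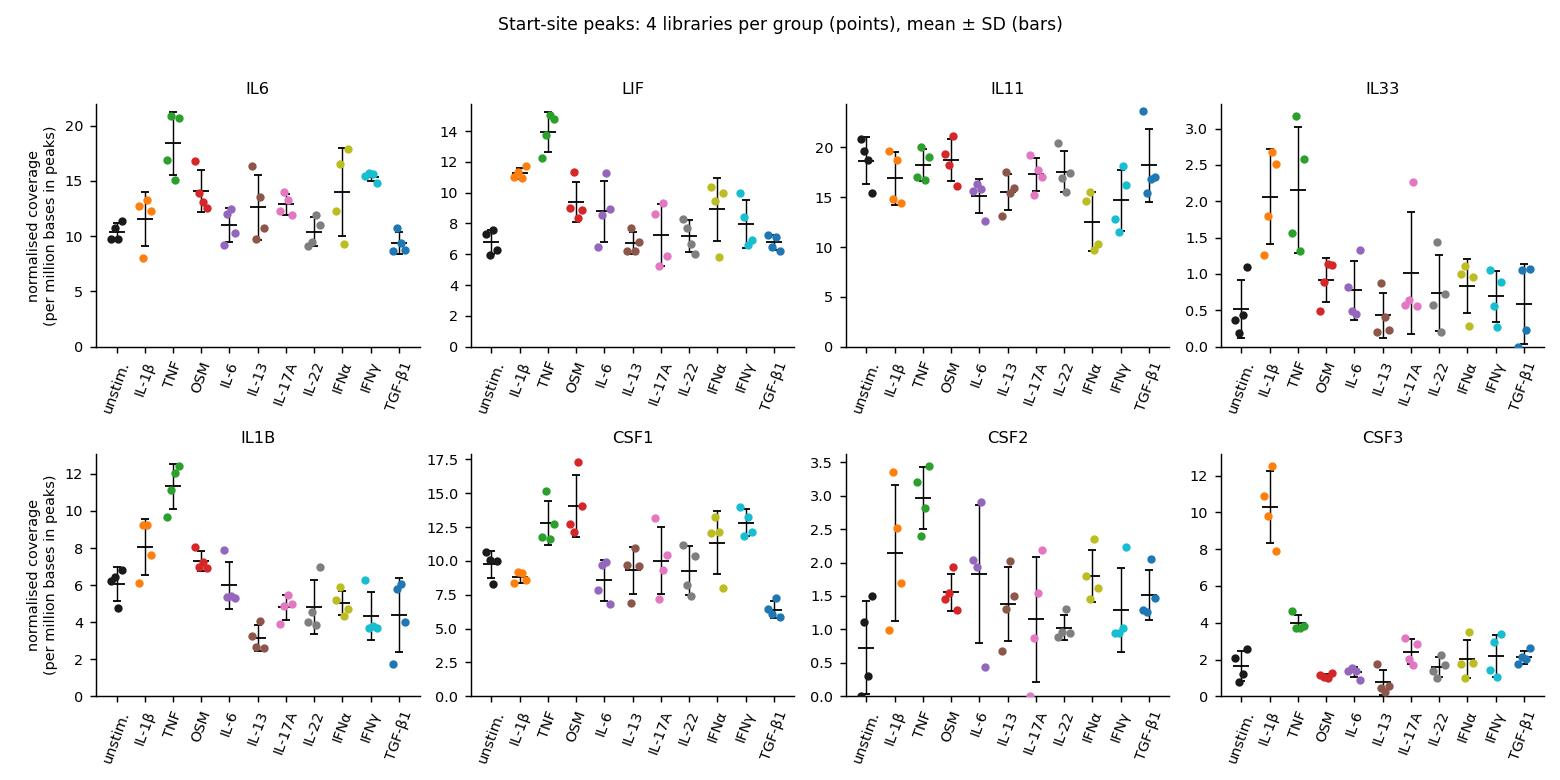
Level of the start-site peak of each gene (y axis, normalised coverage per Mb in peaks) in the 11 groups (x axis). Points are the 4 libraries of a group and bars the mean ± SD. CSF3 stands apart with IL-1β (7.89 to 12.5), LIF and IL1B are highest with TNF, and the group means of IL11 lie between 12.5 (IFNα) and 18.7 (OSM). IL1RN is not plotted because no tested peak lies near its main annotated start.

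IL33 had 34 peaks, of which TNF raised 11 and IL-1β 9. The start-site peak (chr9:6215493-6215993) was shallow, at 0.36, 0.186, 0.44 and 1.10 in unstimulated libraries, or 1.0 to 7.9 reads. It reached 1.26, 1.80, 2.68 and 2.51 with IL-1β (1.36 ± 0.39, adjusted p = 0.021) and 1.56, 3.17, 1.32 and 2.58 with TNF (1.39 ± 0.39, adjusted p = 0.014). Neither group overlapped the unstimulated one. The IL-1β call was lost in 6 of 18 alternative fits and the TNF call in 4 of 18. Both were lost with a pseudocount of 0.1, and the other losses came from leaving out 1 library.

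Peaks around IL33 differed in which cytokines changed them. At -1.2 kb (chr9:6214367-6214867) unstimulated levels were 3.85, 2.35, 4.70 and 2.66, and IL-1β gave 11.4, 11.7, 11.4 and 10.9 (1.65 ± 0.26, adjusted p = 2.7e-07). TNF (1.32 ± 0.26) and IFNγ (1.17 ± 0.26) raised this peak too. IL-13 lowered it to 1.41, 1.35, 0.486 and 1.47 (-1.22 ± 0.26, adjusted p = 0.0011), below all unstimulated libraries.

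In the first kilobases of the gene, the intronic IL33 peak at +2.6 kb (chr9:6218111-6218611) was raised by IFNγ, from 5.28, 5.85, 8.13 and 6.61 to 16.4, 12.3, 20.4 and 13.9 (1.21 ± 0.24, adjusted p = 0.00023). IL-1β and TNF gave changes of -0.52 ± 0.24 and -0.58 ± 0.24 there, which did not pass. This is the peak with the GAS and ISRE matches shown above. At the distal peak at +55.3 kb (chr9:6270846-6271346) IL-1β raised the level from 1.62, 1.30, 0.222 and 2.09 to 7.73, 9.21, 6.13 and 5.30 (2.19 ± 0.30, adjusted p = 2.2e-09) and TNF by 1.77 ± 0.30. IFNα raised it by 1.32 ± 0.30, and for IFNγ the change was 0.91 ± 0.30 (adjusted p = 0.112). Introns at +14.9, +16.7, +31.7 and +32.6 kb held further peaks raised by both IL-1β and TNF, by 1.35 to 2.15.

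IL1B, which encodes IL-1β itself, had more peaks called raised with TNF (6 of 17) than with IL-1β (2). The median change over the 17 peaks was 0.59 with TNF and 0.64 with IL-1β. Compared directly, 1 of the 17 was higher with IL-1β and 1 was lower. The start-site peak (chr2:112836697-112837197) had levels of 6.22, 6.43, 4.74 and 6.82 in unstimulated libraries and 9.70, 11.1, 12.0 and 12.4 with TNF (0.86 ± 0.24, adjusted p = 0.013). With IL-1β they were 6.13, 9.25, 9.22 and 7.63, which overlapped the unstimulated ones (0.38 ± 0.24, adjusted p = 0.566). IL-13 gave 3.27, 2.63, 4.09 and 2.58, below every unstimulated library (-0.85 ± 0.24, adjusted p = 0.033), a call lost in 6 of the 8 fits without 1 library.

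Beyond the 3′ end of IL1B, the peak at +24.6 kb (chr2:112811906-112812406, with the NF-κB matches shown above) rose most. Unstimulated levels were 1.45, 2.00, 1.88 and 3.59. They were 10.4, 10.7, 10.4 and 11.1 with TNF (2.08 ± 0.30, adjusted p = 1.1e-08) and 6.84, 6.55, 6.98 and 8.73 with IL-1β (1.56 ± 0.30, adjusted p = 6.9e-05), and no 2 of these 3 groups overlapped. At +22.3 kb (chr2:112814242-112814742) TNF raised the level from 0.672, 1.69, 2.51 and 0.942 to 4.59, 3.73, 5.55 and 4.29, while with IL-1β it was 1.36, 0.491, 1.19 and 1.76. OSM lowered 2 IL1B peaks, at +12.3 kb (-1.59 ± 0.39) and at -34.3 kb (-1.32 ± 0.30). The peak at +12.3 kb lies over an exon of a gene without a symbol. In it 3 of the 4 OSM libraries had a level of 0, so that value rests on the pseudocount.

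IL1RN had 8 peaks and none was called with any cytokine, in a comparison where changes ran from -1.04 to 1.00. No tested peak lay within 1000 bases of its main GENCODE start site. The peak over an alternative RefSeq start, 9.9 kb upstream (chr2:113117495-113117995), had levels of 2.67, 2.30, 1.70 and 1.31 in unstimulated libraries and 2.46, 2.92, 5.97 and 2.42 with IL-1β. Its changes were 0.61 ± 0.29 with IL-1β (adjusted p = 0.360) and 0.68 ± 0.29 with TNF (adjusted p = 0.234), so no difference was detectable at this depth.

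At CSF3, IL-1β raised 7 of the 13 peaks and TNF 2. At the start-site peak (chr17:40015247-40015747) unstimulated levels were 2.11, 0.786, 1.21 and 2.55. IL-1β gave 10.9, 9.80, 12.5 and 7.89 (2.38 ± 0.32, adjusted p = 7.9e-10), and TNF gave 4.65, 3.73, 3.72 and 3.83 (1.13 ± 0.32, adjusted p = 0.017). The 3 groups stood apart, with IL-1β highest, TNF next and unstimulated lowest. Mean levels with the other 8 cytokines lay between 0.757 (IL-13) and 2.43 (IL-17A), and none passed against unstimulated.

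The CSF3 peak at +2.9 kb (chr17:40018070-40018570) had the largest IL-1β change of the 246. It rose from 0.952, 0.763, 0.656 and 1.66 to 8.11, 7.70, 11.0 and 10.9 (2.75 ± 0.34, adjusted p = 3.0e-11). TNF gave 3.36, 1.20, 2.40 and 3.07, which overlapped the unstimulated libraries (0.97 ± 0.34, adjusted p = 0.0907). Summed over the 13 CSF3 peaks, coverage was 30.3 ± 2.06 in unstimulated libraries, 76.2 ± 5.33 with IL-1β and 45.9 ± 7.84 with TNF (SD, n = 4 each). Some of these peaks, at +4.0 and +4.5 kb, lie over coding exons of the neighbouring gene MED24.

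CSF2 was raised by IL-1β and TNF at the same 3 of 23 peaks. At the start site (chr5:132073457-132073957) levels were 0, 1.11, 0.305 and 1.50 in unstimulated libraries, 3.20, 2.40, 2.81 and 3.45 with TNF (1.69 ± 0.36, adjusted p = 0.00031) and 0.996, 3.35, 2.51 and 1.69 with IL-1β (1.22 ± 0.36, adjusted p = 0.029). The IL-1β libraries overlapped the unstimulated ones and the TNF libraries did not. The IL-1β call was lost in 4 of 19 alternative fits, each without 1 library, and the TNF call was kept in all. At +12.7 kb (chr5:132086199-132086699) the spread was small. Levels were 9.18, 10.1, 9.25 and 9.56 in unstimulated libraries, 28.1, 28.1, 30.1 and 27.1 with IL-1β (1.52 ± 0.18, adjusted p = 4.8e-12) and 22.8, 20.6, 20.1 and 23.7 with TNF (1.15 ± 0.18). The other 8 groups had means of 8.15 to 11.9, and none was called. This peak had no match to the motifs searched.

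The CSF2 peak at +21.1 kb (chr5:132094629-132095129, with the NF-κB and AP-1 matches shown above) was the most open of the gene. OSM raised it as well, from 20.4, 15.4, 16.3 and 18.9 to 32.7, 36.9, 33.5 and 28.4 (0.88 ± 0.15, adjusted p = 5.9e-06). TNF gave 35.2, 41.1, 38.5 and 37.4 (1.09 ± 0.15) and IL-1β 32.5, 25.6, 33.1 and 31.9 (0.78 ± 0.15). IL-13 lowered it to 12.7, 9.28, 14.1 and 11.7 (-0.56 ± 0.15, adjusted p = 0.027). None of these groups overlapped the unstimulated libraries.

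CSF1 had the most peaks and a different set of cytokines. TNF, OSM and IFNγ each raised 6 of the 71, while IL-1β raised 1 and lowered 3. The start-site peak (chr1:109910559-109911059, over coding and 5′ untranslated sequence) was open in every group, with unstimulated levels of 10.6, 10.1, 8.27 and 9.99, and none of the 10 cytokines passed against unstimulated. Its mean was highest with OSM, 14.1 ± 2.32, and lowest with TGF-β1, 6.40 ± 0.607 (SD, n = 4).

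IFNγ and IL-1β moved the CSF1 peak at -45.4 kb (chr1:109865237-109865737, which lies in the gene LINC01768) in opposite directions. Unstimulated levels were 2.05, 2.29, 1.95 and 1.38. IFNγ raised it by 1.20 ± 0.32 (adjusted p = 0.020), a call lost in 4 of 19 alternative fits. IL-1β lowered it by 1.05 ± 0.32, to 0.672, 1.23, 0.720 and 0.217, below every unstimulated library, and this call was lost in 8 of 19.

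TNF and IL-1β differed at some CSF1 peaks and not at others. At -18.1 kb (chr1:109892452-109892952, with the NF-κB matches shown above) TNF gave 12.8, 13.2, 8.80 and 9.74 and IL-1β 9.78, 6.03, 7.20 and 5.10, against 2.32, 1.06, 2.38 and 2.70 in unstimulated libraries (2.18 ± 0.32 and 1.54 ± 0.32). The TNF and IL-1β libraries overlapped at this peak, and no difference between them was called there. In the intron at +7.2 kb (chr1:109917754-109918254) TNF raised the level from 3.17, 2.57, 1.88 and 1.98 to 9.93, 13.7, 8.26 and 9.88 (1.92 ± 0.28, adjusted p = 2.1e-08). With IL-1β it stayed at 3.06, 2.99, 3.27 and 1.09, which overlapped the unstimulated libraries. At +23.6 kb (chr1:109934195-109934695) TNF raised it by 1.47 ± 0.22 and OSM by 1.04 ± 0.22.

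Some CSF1 peaks fell. TGF-β1 lowered the intronic peak at +3.9 kb (chr1:109914547-109915047) from 5.55, 9.37, 8.97 and 5.71 to 2.32, 1.50, 4.20 and 3.86 (-1.23 ± 0.23, adjusted p = 2.7e-05), without overlap. IL-1β lowered a peak at -70.3 kb, in LINC01768, from 2.56, 3.76, 2.83 and 2.55 to 0.957, 1.74, 0.828 and 0.458 (-1.25 ± 0.31, adjusted p = 0.0041). OSM lowered a peak at -18.7 kb (chr1:109891903-109892403) from 1.82, 2.11, 0.437 and 0.877 to 0, 0.343, 0.190 and 0, all at or under 3 reads. Measured against that floor of 3 reads per library, its mean was at least 2.83-fold lower than the unstimulated mean.

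**Figure D3:**
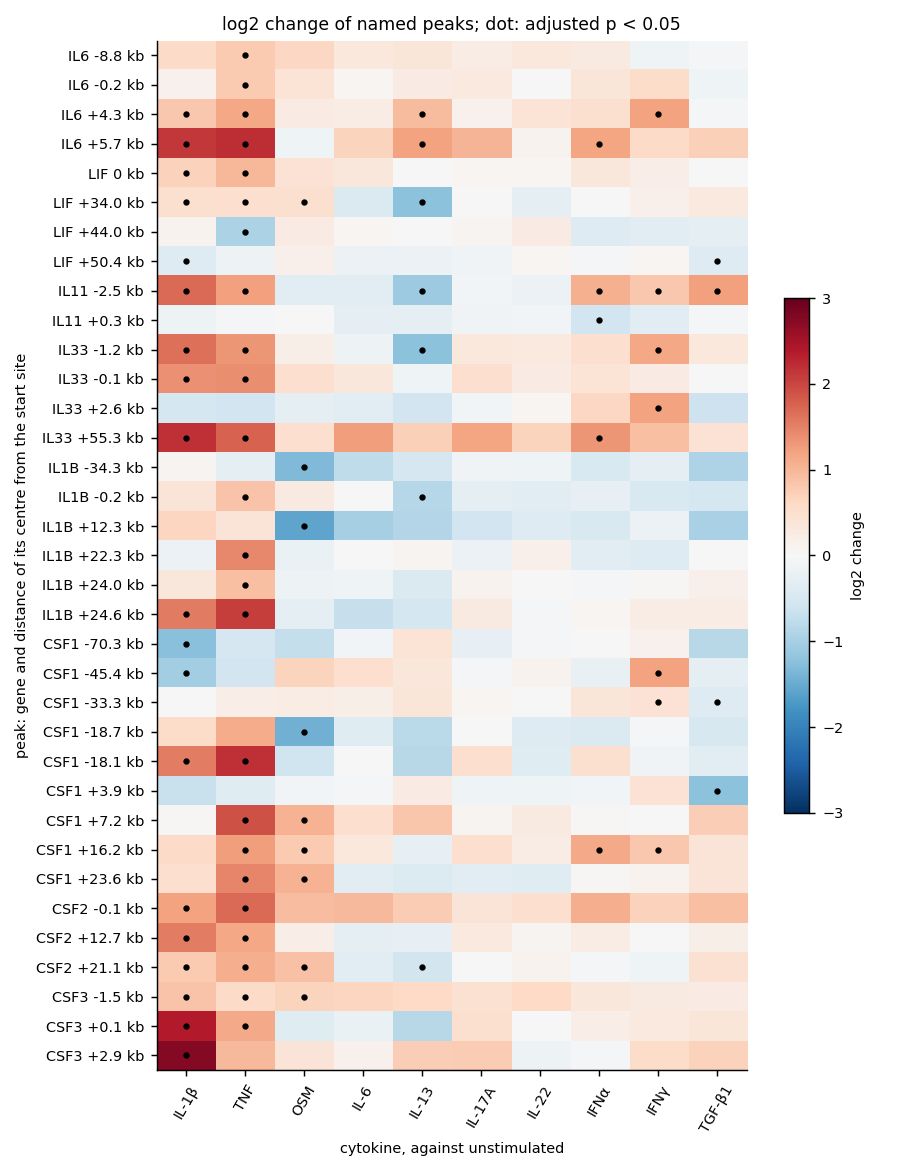
Change on the log2 scale against unstimulated (colour, red raised and blue lowered) for 35 peaks (rows, by gene and distance of the peak centre from the start site) and 10 cytokines (columns). Dots mark an adjusted p under 0.05. The IL-1β and TNF columns hold most dots, and IL-6, IL-17A and IL-22 have none.

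**Figure D4:**
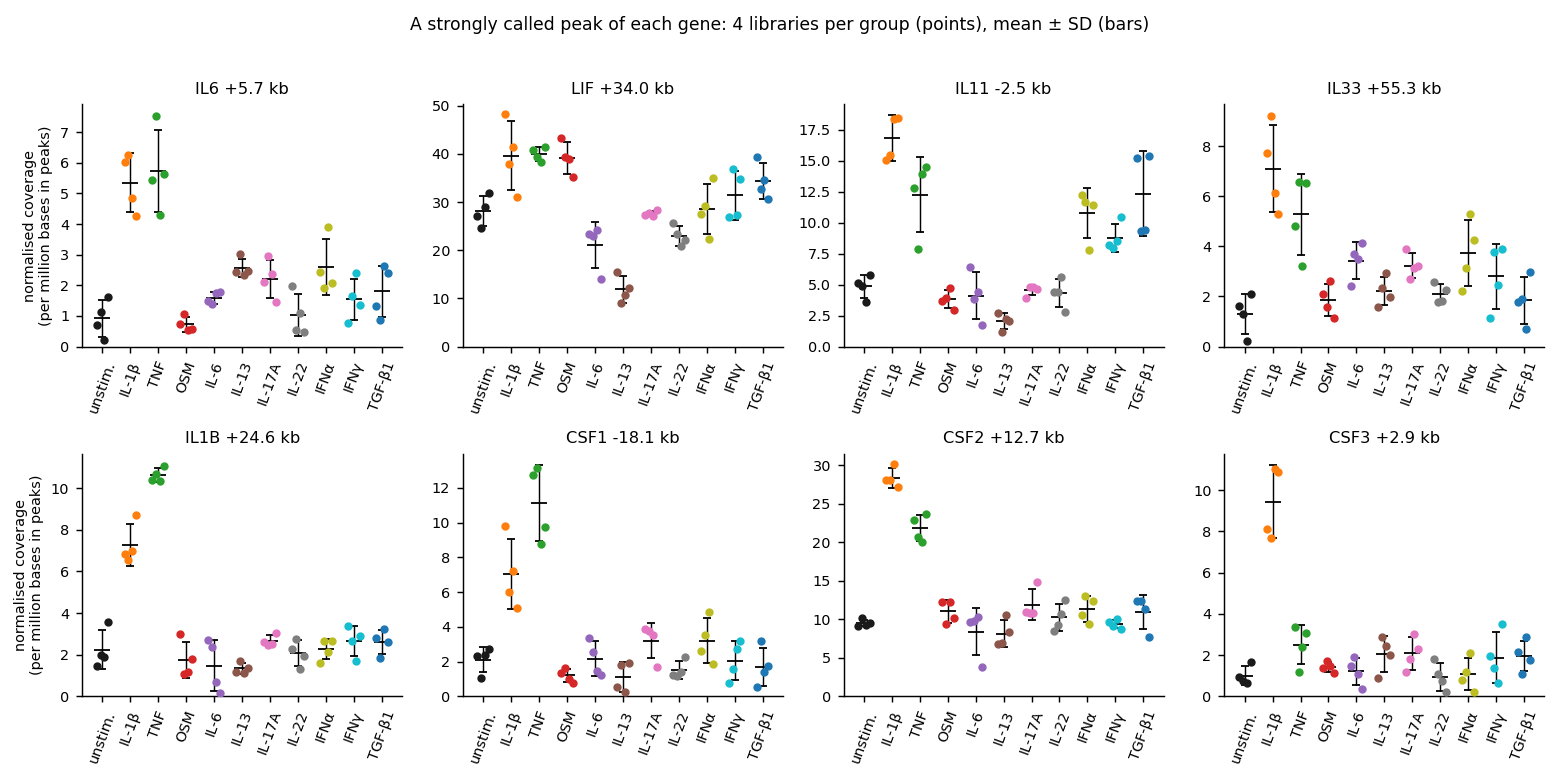
Level (y axis, normalised coverage per Mb in peaks) of 1 strongly called peak of each of 8 genes in the 11 groups (x axis), with 4 libraries as points and the mean ± SD as bars. The panel for IL6 is the peak at +5.7 kb. CSF2 and CSF3 are highest with IL-1β, IL1B and the CSF1 peak at -18.1 kb with TNF, and LIF is lowest with IL-13 (9.10 to 15.6).

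IL-1β and TNF were compared with each other over the same peaks. Their doses differ (0.1 ng/ml by the labels, and 10 ng/ml), so the comparison is of those doses as well as of the cytokines. IL-1β was higher at 5 of the 246 peaks (2.03%, against 0.22% of all tested peaks) and lower at 5 (2.03%, against 1.01%). CSF3 held 3 of the higher ones, among them +2.9 kb (1.77 ± 0.34, adjusted p = 0.0002) and the start site (1.25 ± 0.32, adjusted p = 0.014). IL1B and LIF held 1 higher peak each. CSF1 held 3 of the lower ones, led by +7.2 kb (-1.87 ± 0.28, adjusted p = 2.9e-07). The IL6 start site (-0.66 ± 0.18, adjusted p = 0.024) and the IL1B peak at +22.3 kb (-1.62 ± 0.36, adjusted p = 0.0025) were the other two. The count of 10 fell to 5 without IL-1β replicate 3 or without TNF replicate 2.

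OSM and IL-6, which share the gp130 chain, were compared at the same dose. OSM was higher at 13 peaks (5.28%, against 3.39% of all tested peaks) and lower at 0 (background 0.78%). At an unadjusted p under 0.05 it was higher at 30 and lower at 26, a threshold for which the share of all tested peaks was not computed. LIF held 6 of the 13 and CSF1 4. The CSF2 peak at +21.1 kb had levels of 13.7, 15.9, 17.4 and 10.5 with IL-6 and 28.4 to 36.9 with OSM (1.18 ± 0.15, adjusted p = 2.0e-10). At the LIF peak at +34.0 kb the IL-6 levels were 23.4, 23.1, 24.1 and 14.0 and the difference was 0.90 ± 0.13 (adjusted p = 5.8e-08). At CSF1 +23.6 kb they were 2.79, 5.42, 8.18 and 2.68 and the difference was 1.37 ± 0.22 (adjusted p = 2.0e-06). Without the shallow IL-6 replicate 4 the count was 9, of which 7 were among the 13.

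**Figure D5:**
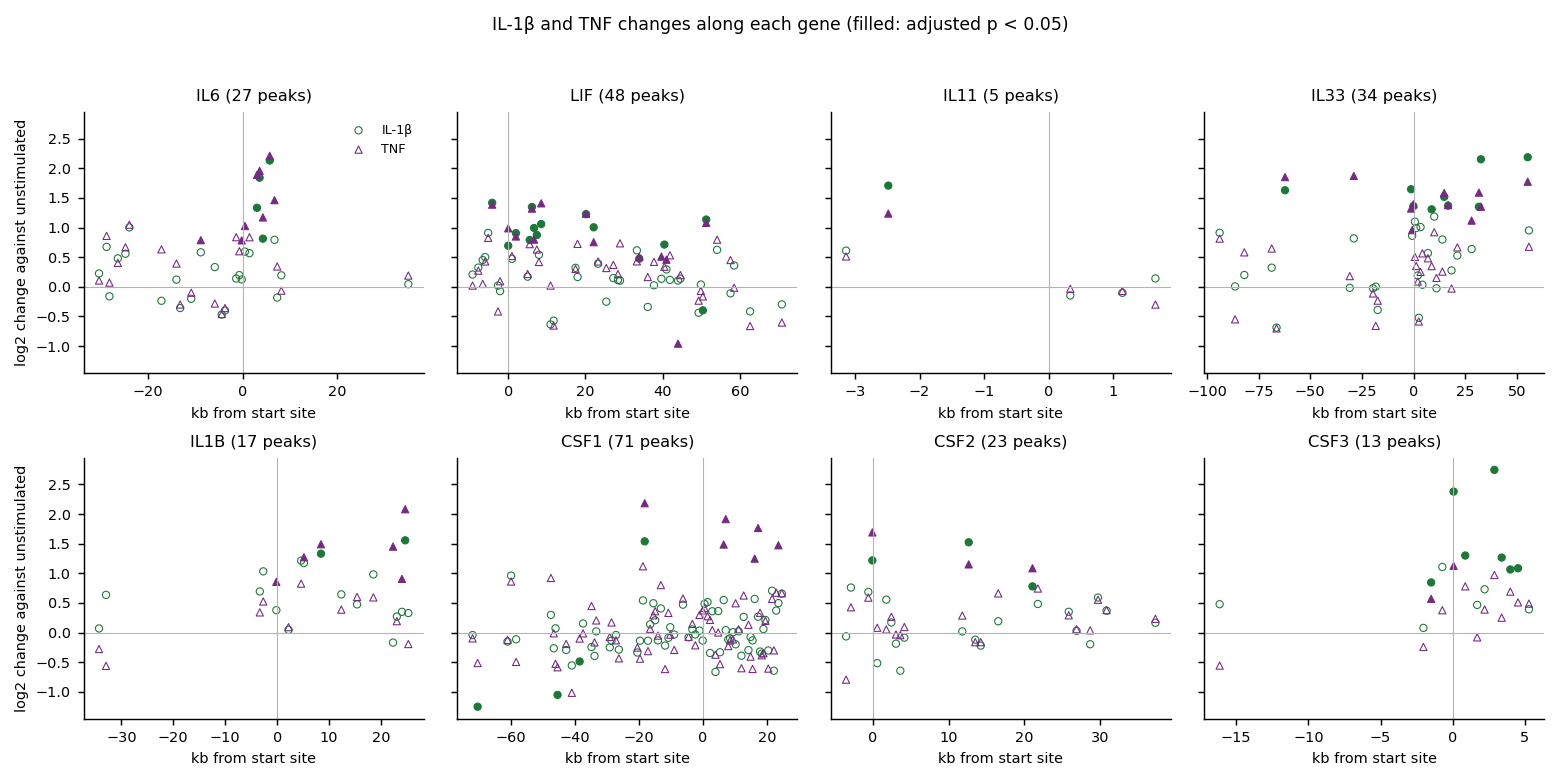
Change on the log2 scale with IL-1β (circles) and TNF (triangles) for every peak of 8 genes (y axis) by distance from the start site in kb (x axis), with filled symbols at an adjusted p under 0.05. At IL6 the filled symbols lie within about 10 kb, mostly downstream of the start, whereas at LIF, IL33 and CSF1 they also lie much farther from the start. CSF3 has more filled circles (7) than triangles (2).

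Related genes were read by the peak nearest to each start site. Of 12 receptor genes for these cytokines 8 had a tested peak, and OSM raised 4 of them and lowered 0, beside 3.29% of all peaks raised. They were IL6ST (0.76 ± 0.13, adjusted p = 3.3e-06), LIFR (0.89 ± 0.23), OSMR (0.45 ± 0.13) and IL6R (0.42 ± 0.13), named after their values were seen. The IL6ST mean went from 24.9 to 41.9. With GC correction none of the 4 was called (IL6ST 0.38, adjusted p = 0.0513), and the IL6R and OSMR calls were lost under each of the 5 other scalings, although no sign turned. The LIFR call was also lost with median-of-ratios scaling (adjusted p = 0.0536) and with loess offsets (adjusted p = 0.0964). TGF-β1 lowered IL11RA (-0.56 ± 0.17) and IL1RAP (-0.44 ± 0.14), calls that were also lost under each of those 5. IL-1β and TNF called 0 of the 8.

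Other ligands changed less often. Of 6 further IL-6 family ligands, CTF1 alone was called against unstimulated, lowered by TGF-β1 (-0.51 ± 0.15), and this call too was lost under each of those 5 scalings. Of 8 further IL-1 family ligands only IL1A and IL18 had a tested start-site peak and neither was called. Among 12 other stromal cytokines and growth factors, IL32 was raised by TNF (2.46 ± 0.26, adjusted p = 4.8e-15), IFNγ (1.37 ± 0.26), IL-1β (1.15 ± 0.26) and IFNα (1.08 ± 0.26). IFNγ also raised FLT3LG (1.08 ± 0.20), IL15 (1.02 ± 0.21) and TNFSF13B (1.24 ± 0.23), which encode the dendritic cell growth factor FLT3 ligand, the lymphocyte cytokine IL-15 and the B cell factor BAFF. Its 4 raised genes of 12 stand beside 1.36% of all peaks. OSM raised CXCL12 (0.96 ± 0.29), a call lost under each of those 5 scalings, and TGF-β1 lowered TNFSF13B (-0.87 ± 0.23) and HGF (-0.66 ± 0.19), calls lost under 1 and 4 of them. ELF3, listed as an epithelial marker, rose with IL-1β from 0.683 to 8.38 (2.99 ± 0.37, adjusted p = 3.4e-11). THY1, listed as a fibroblast marker, fell with IL-1β from a mean of 8.80 to 5.30 (-0.68 ± 0.20, adjusted p = 0.0346). OSM raised THY1 to 13.9 (0.63 ± 0.20, adjusted p = 0.0488), a call lost under each of those 5 scalings, whereas the IL-1β call was kept under all 5.

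Across the 11 group means, the start-site peaks of other genes whose pattern was most like that of CSF3 were those of CYP2S1 (r = 0.968) and MMP3 (r = 0.962), among 17699 candidates. IL1B was most like IRAK2 (0.956), CSF1 most like CSNK1A1 (0.964), IL33 most like PDZK1IP1 (0.944), CSF2 most like ORM1 (0.931), LIF most like PPID (0.928), IL6 most like SLCO5A1-AS1 (0.915) and IL11 most like a gene without a symbol (0.917). The third most like LIF was the chemokine gene CXCL3 (0.919). These are Pearson correlations over 11 means that share libraries and scaling, given as a description.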

How the data were processed

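ATAC-seq libraries of the Ccd18-Co line were processed by the authors with the ENCODE ATAC-seq pipeline on hg38, which included a peak call by MACS2. The version of MACS2 is not given in the sources used here. The deposited table gives, for every 500-base peak and library, the total of per-base read coverage, a signal value that was not scaled for depth. The methods describe a consensus peak set for fewer samples than these, and how the peaks of this table were selected is not given in the sources used here. The study's bulk peaks varied in length, and its fixed-width peaks of 500 bases belong to the single-cell ATAC-seq of tissue. All peaks of this table span 500 bases, so they may not have been called in these libraries. The study's count model does not suit such values, so limma (version 3.58.1, R 4.3.3) was fitted to log2(coverage per Mb + 0.5) instead.

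Values were scaled to each library's total and then to its composition, using ratios to the mean library with 30% of ratios and 5% of means trimmed from each end. Peaks with a log2 mean over -3 were tested, which left out 221. All 44 libraries entered 1 fit by group with a mean-variance trend. Tests were two-sided, with Benjamini-Hochberg adjustment over 407162 peaks. A read is taken as 75 bases and the floor as 3 reads per library, which covers counting error only. In simulated data for TNF on 39955 peaks, 100 of 100 changes of 4-fold and 32 of 100 of 2-fold were called, with 4 false calls. These changes were placed only in peaks with a mean level over 2, with an assumed spread between libraries. Median unstimulated levels of the genes' peaks ran from 0.531 (IL6) to 5.31 (IL11), so recovery at the lower peaks was not measured.

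Named peaks were the start-site peak of each gene, the best called peaks of each comparison and the best called peak of each gene. Other peaks, and the stretches of sequence printed, were chosen after their values were seen. The members and gene lists were chosen with earlier results of these data known. ATAC-seq reads carry no strand, so overlapping genes cannot be told apart. The values of 1 CSF1 peak are counted in the totals but not reported here.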

Additional observations from a re-analysis of the deposited data

Results flagged for a closer look

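Among 418 sets of 4 libraries (a named peak in a group), 27 held 1 library far from the other three, by the gap to its nearest neighbour relative to the range of the set. Chance alone flags about 1 set in 20, or 20.9 of 418. The values are levels in coverage per Mb.

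At CSF3, TNF replicate 1 was high at the start site peak (4.65, the others at 3.72 to 3.83). At CSF1, IL-6 replicate 4 was low at the -45.4 kb peak (1.48, the others at 3.34 to 3.69), and IL-13 replicate 2 was low at the -33.3 kb peak (36.4, the others at 44.1 to 44.9). TGF-β1 replicate 1 was high at the -33.3 kb peak (28.9, the others at 23.6 to 23.9), and IL-6 replicate 4 was high at the -18.7 kb peak (1.57, the others at 0.556 to 0.698). IL-22 replicate 3 was high at the -18.7 kb peak (2.23, the others at 0.38 to 0.645), and IL-17A replicate 4 was low at the -18.1 kb peak (1.68, the others at 3.51 to 3.89). IL-22 replicate 3 was high at the +3.9 kb peak (10.5, the others at 5.26 to 5.98), and IL-1β replicate 4 was low at the +7.2 kb peak (1.09, the others at 2.99 to 3.27). IFNα replicate 1 was low at the +7.2 kb peak (0.943, the others at 2.96 to 3.35), and IL-17A replicate 4 was high at the +23.6 kb peak (6.11, the others at 3.81 to 4.01). TGF-β1 replicate 1 was low at the +23.6 kb peak (6.35, the others at 7.75 to 7.97). At LIF, IFNα replicate 3 was low at the +50.4 kb peak (47.6, the others at 61.8 to 63.4), and IL-6 replicate 4 was low at the +34.0 kb peak (14.0, the others at 23.1 to 24.1). At IL1B, OSM replicate 1 was high at the +12.3 kb peak (0.551, the others at 0), and IL-6 replicate 1 was high at the start site peak (7.87, the others at 5.31 to 5.39). IFNγ replicate 1 was high at the start site peak (6.27, the others at 3.66 to 3.78). At IL1RN, IL-1β replicate 3 was high at the alternative start peak (5.97, the others at 2.42 to 2.92), and IL-22 replicate 4 was low at the alternative start peak (1.19, the others at 3.47 to 3.87). TGF-β1 replicate 2 was high at the alternative start peak (4.76, the others at 2.58 to 2.92). At CSF2, IFNγ replicate 4 was high at the start site peak (2.23, the others at 0.939 to 1.03), and IL-6 replicate 4 was low at the +12.7 kb peak (3.86, the others at 9.7 to 10.2). IL-17A replicate 4 was high at the +12.7 kb peak (14.9, the others at 10.8 to 10.9), and IL-1β replicate 2 was low at the +21.1 kb peak (25.6, the others at 31.9 to 33.1). At IL6, IFNγ replicate 4 was low at the +4.3 kb peak (9.05, the others at 9.71 to 9.76). At IL33, IL-13 replicate 3 was low at the -1.2 kb peak (0.486, the others at 1.35 to 1.47), and IL-17A replicate 3 was high at the start site peak (2.27, the others at 0.556 to 0.642).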

How the results depend on the processing

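Of 132 counts of called peaks over the 12 comparisons and the other settings with all libraries, 115 stayed within 1.5 times the reported count and 17 did not. With OSM against unstimulated the count was 17 and became 11 with library totals, 10 with median-of-ratios scaling, 10 with a composition factor from peaks with coverage in every library (chosen after seeing the data) and 27 with only the groups compared. With IL-6 it was 0 and became 1 with library totals, median-of-ratios scaling, that other composition factor or loess offsets. IFNα went from 5 to 3 with a pseudocount of 2 or only the groups compared, and IFNγ from 11 to 7 with a pseudocount of 0.1. TGF-β1 went from 7 to 11 with median-of-ratios scaling, the other composition factor or only the groups compared, and to 13 with a filter at a log2 mean over 0. IL-1β against TNF went from 10 to 6 with a pseudocount of 0.1, and OSM against IL-6 from 13 to 20 with the filter at 0. At the LIF peak at +50.4 kb (chr22:30196085-30196585), loess offsets turned the sign for TGF-β1 (0.024) and for OSM against IL-6 (-0.063). The cause was not tested.

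Leaving out 1 library gave counts of 32 to 39 for IL-1β, 39 to 47 for TNF, 10 to 17 for OSM, 0 to 1 for IL-6, 7 to 12 for IL-13, 0 for IL-17A and IL-22, 2 to 5 for IFNα, 8 to 10 for IFNγ, 4 to 7 for TGF-β1, 5 to 9 for IL-1β against TNF and 9 to 15 for OSM against IL-6. Counts moved by over 1.5 times for OSM without OSM replicate 1 (10), for IL-6 without IL-6 replicate 1 (1), and for IL-13 without unstimulated replicate 1 (7), unstimulated replicate 4 (7) or IL-13 replicate 2 (8). The same held for IFNα without unstimulated replicate 1 or 3 (2 each), unstimulated replicate 2 (3) or IFNα replicate 3 or 4 (3 each), for TGF-β1 without unstimulated replicate 1 or 3 or TGF-β1 replicate 3 or 4 (4 each), and for IL-1β against TNF without IL-1β replicate 3 or TNF replicate 2 (5 each). Of 91 calls at named peaks, 49 were kept throughout, and over 1727 refits 1536 kept the call, 189 lost it and 2 changed sign. The labels number the libraries of each group, but libraries with the same number did not deviate together (no pair correlated over 0.1, and 13 of 44 libraries correlated best with their own number). With the replicate block the counts were 44 for IL-1β, 52 for TNF, 18 for OSM, 0 for IL-6, 13 for IL-13, 0 for IL-17A, 0 for IL-22, 5 for IFNα, 11 for IFNγ, 7 for TGF-β1, 10 for IL-1β against TNF and 14 for OSM against IL-6. Depth limits peaks near 3 reads, where changes rest on the pseudocount.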
